A study of Mus musculus with 15 samples.

Results

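The cone photoreceptor effector genes are 10 cone-enriched genes, leaving out fate factors shared with rods. Each was taken by gene symbol from the 16098 symbols in the deposited tables of the postnatal day 2 mouse retina. They are Opn1sw, Gnat2, Gngt2, Gnb3, Pde6c, Pde6h, Cngb3, Kcne2, Ccdc136 and Sall3, and all 10 were found, with 29 transcript rows in each table. The 15 samples of total RNA came from CD-1 retinas in 3 groups of 5. WT retinas were homozygous for the conditional Neurog2 allele (Neurog2CKO/CKO) and carried no Cre, HET retinas were Chx10Cre;Neurog2CKO/+, with 1 floxed allele, and MUT retinas were Chx10Cre;Neurog2CKO/CKO, with both alleles floxed. Chx10 is a homeobox gene of retinal progenitors and later of bipolar cells, and its sequences drive the Cre. No group carried Cre without a floxed allele, so WT differs from both other groups by Cre as well as by Neurog2.

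Cones are born before birth in the mouse, ahead of most rods, and at postnatal day 2 they have not yet built outer segments. In the mature cone, light activates an opsin, the opsin activates the heterotrimeric G protein transducin, and transducin relieves a phosphodiesterase of its inhibitory subunits. The fall in cyclic GMP then closes cyclic nucleotide-gated channels. Rods run the same cascade with a largely separate set of paralogs. Neurog2 belongs to the basic helix-loop-helix family and promotes neuronal fates in retinal progenitors.

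Each value is an FPKM (fragments per kilobase of transcript with scaling to the mapped fragments) that the authors pooled over the 5 samples of a group, summed here over the transcripts of a gene. There is thus 1 value per gene and group, without a spread between samples, and the depth is unknown. The targeted gene was checked first: Neurog2 was at 59.5 FPKM in WT, 42.4 FPKM in HET and 10.6 FPKM in MUT. The same group estimated in its 2 tables differed by at most 0.543% for any of the 10 genes. In bulk tissue, fewer cones and less RNA per cone cannot be told apart.

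The sequences before the starts of 3 of these genes are shown, and no level or ratio below was computed from them. The 3 are the opsin gene, whose level was close to equal in the 3 groups, Kcne2, the member with the largest difference, and Ccdc136. The transcripts from the 2 starts of Ccdc136 are given separately below. Each sequence is the 250 bases before a RefSeq start on GRCm38.p6, read 5′ to 3′ on the strand of the gene. Opn1sw lies on the minus strand at chr6:29380514-29380763, Kcne2 on the plus strand at chr16:92292139-92292388, and the Ccdc136 windows on the plus strand at chr6:29396334-29396583 (first start) and chr6:29398676-29398925 (second start). Capitals mark CATCTG, the reverse complement of CAGATG.
Opn1sw: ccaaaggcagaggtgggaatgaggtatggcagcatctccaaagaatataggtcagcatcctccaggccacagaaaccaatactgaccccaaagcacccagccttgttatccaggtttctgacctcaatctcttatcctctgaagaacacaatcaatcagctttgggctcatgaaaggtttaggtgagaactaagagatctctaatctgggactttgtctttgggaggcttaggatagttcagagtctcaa
Kcne2: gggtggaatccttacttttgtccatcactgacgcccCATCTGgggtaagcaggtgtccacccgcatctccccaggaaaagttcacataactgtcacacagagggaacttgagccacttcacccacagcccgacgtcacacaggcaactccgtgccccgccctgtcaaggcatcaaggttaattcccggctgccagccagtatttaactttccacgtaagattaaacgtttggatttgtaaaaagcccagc
Ccdc136 first start: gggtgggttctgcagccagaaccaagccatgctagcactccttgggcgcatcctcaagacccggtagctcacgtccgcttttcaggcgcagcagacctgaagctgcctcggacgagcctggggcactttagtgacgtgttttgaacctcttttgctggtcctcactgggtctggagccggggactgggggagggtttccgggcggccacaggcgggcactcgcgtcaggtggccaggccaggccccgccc
Ccdc136 second start: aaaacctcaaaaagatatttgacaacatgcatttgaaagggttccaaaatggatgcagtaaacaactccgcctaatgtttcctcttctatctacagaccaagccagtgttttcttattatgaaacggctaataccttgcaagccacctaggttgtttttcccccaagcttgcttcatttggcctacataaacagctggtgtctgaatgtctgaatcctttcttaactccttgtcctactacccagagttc

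RefSeq windows were matched for 5 members (Opn1sw, Gnat2, Pde6h, Kcne2 and Ccdc136), with 9 windows in all. Both strands were searched for TAATCC, a motif bound by the photoreceptor homeobox factors Crx and Otx2, and for CAGATG and CATATG, letters of the E-box class that basic helix-loop-helix factors bind. CATATG reads the same on both strands, and the 3 motifs do not overlap in these windows. TAATCC was found in Gnat2 alone, as GGATTA starting 19 bases before the start, and 6.25% of all 32851 promoter windows hold it. That Gnat2 start is at 108093066, and the gene's leading transcript begins at 108093138. Its coding transcript ENSMUST00000058669 begins at 108092789, upstream of the window, so the window does not precede that transcript. CAGATG was found as CATCTG in the Kcne2 window shown, starting 214 bases before the start. The other Kcne2 window, before a start at 92295616, held none of the 3 motifs. Pde6h held CATCTG at 3 places, starting 231, 202 and 80 bases before the start. Of all windows, 14.4% had at least 1 match. The Pde6h window lies before a start 30.7 kb downstream of the start of its only measured transcript, so it does not precede that transcript. CATATG was in none of the 9 windows and in 3.46% of all windows. Windows of genes with 0.5 FPKM or more in WT or MUT numbered 13217. Of these, 5.17% held TAATCC, 10.1% CAGATG and 1.60% CATATG. The windows of Opn1sw and of both Ccdc136 starts held none of the 3 motifs.

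By level, the genes spanned nearly 3 orders of magnitude in WT. Gngt2 was highest with 294.9 FPKM, above 98.3% of the genes with 0.5 FPKM or more in WT or MUT, followed by Gnb3 with 172.6 FPKM. Opn1sw with 54.0 FPKM and Ccdc136 with 53.0 FPKM were almost equal, and Gnat2 stood at 18.6 FPKM. Cngb3 reached 4.57 FPKM, Sall3 1.45 FPKM, Pde6c 1.28 FPKM and Kcne2 1.08 FPKM, and the single Pde6h row was at 0.390 FPKM. Without values per sample, which neighbours in this order differ beyond the spread between samples was not tested. At this age the RNA of the transducin beta and gamma subunits thus far exceeded that of the catalytic phosphodiesterase subunit on a scale per length.

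**Figure D1:**
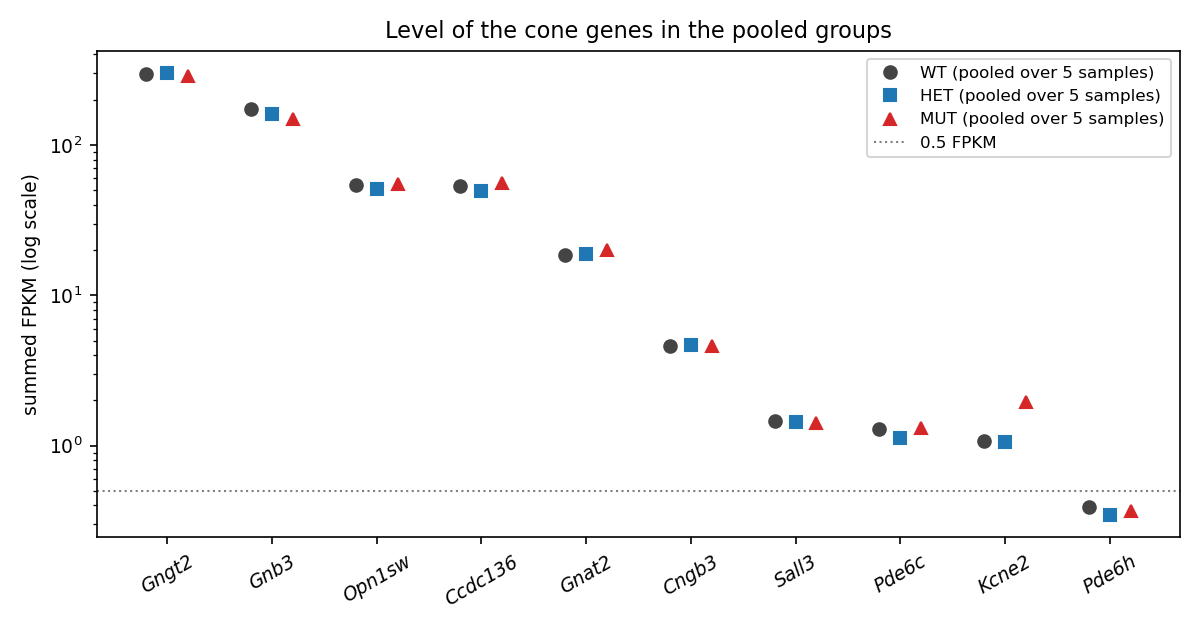
Summed FPKM (log scale) of the 10 cone genes, ordered by level in WT, with 1 point per pooled group (WT circle, HET square, MUT triangle) and no error, since the deposited values are pooled. The 3 points of a gene nearly coincide for all but Kcne2, where MUT at 1.94 FPKM stands above WT at 1.08 and HET at 1.06; Pde6h lies under the dotted line at 0.5 FPKM.

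Across the genotypes, the group as a whole moved little. From WT to HET, no member transcript passed the authors' Cuffdiff test at a q-value under 0.05 (0% of all rows did) or at an unadjusted p under 0.05 (0.515% of all rows did, 0.227% higher and 0.288% lower in HET). From WT to MUT, none of the 29 rows passed at the q-value, against 0.115% of all rows, and 1 row, Kcne2, was under an unadjusted p of 0.05, against 0.851% of all rows, with 0.368% higher and 0.483% lower in MUT. From HET to MUT, none passed at the q-value (0% of all rows) and again 1 row, Kcne2, was under the unadjusted threshold, against 0.814% of all rows, with 0.344% higher and 0.471% lower in MUT. The comparisons share groups, so the Kcne2 rows of the last 2 rest on the same MUT samples. In the authors' deposited tables, the rows that share the smallest p of 5e-05 have a q-value of 0.0769 from WT to HET and 0.0762 from HET to MUT, so no row could be called there.

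Over the 9 members with 0.5 FPKM or more, the median log2 ratio of (FPKM + 0.1) was -0.02 from WT to HET, 0.02 from WT to MUT and 0.10 from HET to MUT, beside 0.01, 0.01 and 0.00 over all genes with that level. From WT to HET, 4 members lay above 0 and 5 below, where 53.2% of all genes lay above. From WT to MUT, 6 lay above and 3 below (53.8% of all genes above), and from HET to MUT 5 above and 4 below (52.1% of all genes above). The HET to MUT median was 0.04 over members with 2 FPKM or more and 0.05 with leading transcripts alone. Pde6h did not reach the minimum and is left out of these counts. The pseudocount of 0.1 makes ratios of the lowest genes look smaller.

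**Figure D2:**
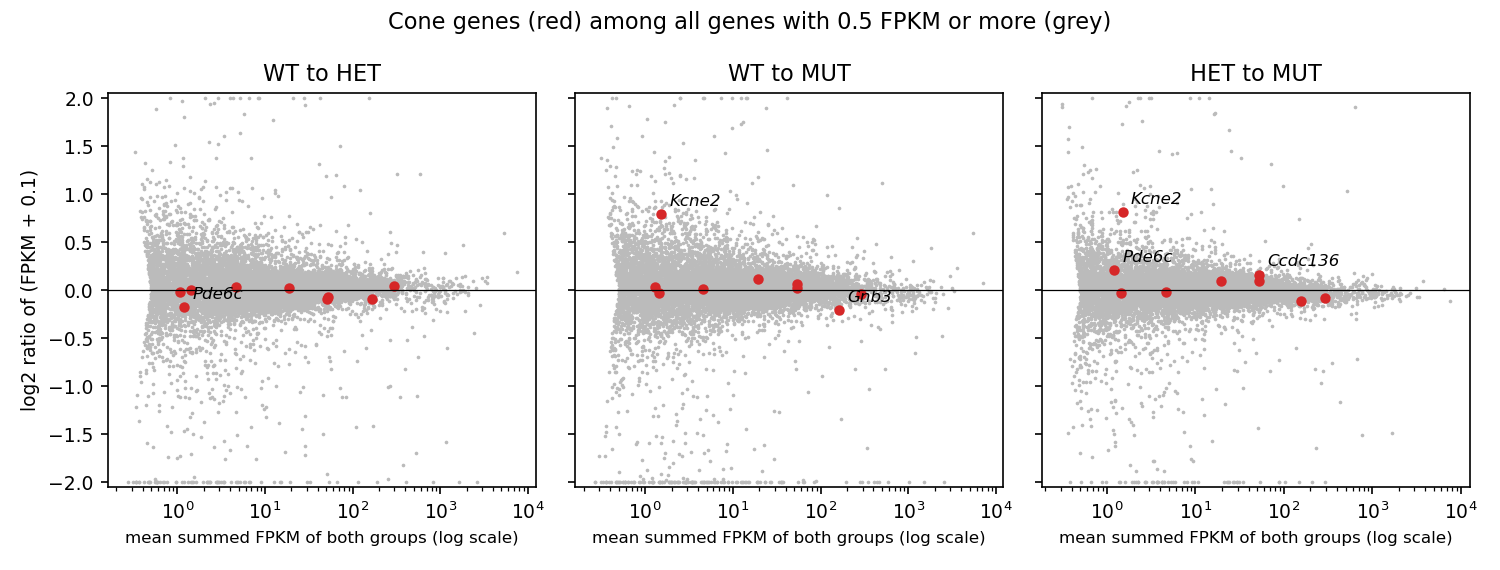
Log2 ratio of (FPKM + 0.1) against mean summed FPKM (log scale) for all genes with 0.5 FPKM or more (grey) and the 9 cone genes at that level (red), in the 3 comparisons; ratios beyond 2 in either direction are drawn at the edge. Kcne2 stands at 0.79 and 0.81 in the comparisons with MUT, while the other 8 lie between -0.21 and 0.21.

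The opsin came first in the cascade. Opn1sw, the short-wavelength opsin that mouse cones make before the other cone opsin, was at 54.0 FPKM in WT, 50.9 FPKM in HET and 54.7 FPKM in MUT. HET was the lowest and MUT the highest. Its leading transcript ENSMUST00000147483 had log2 fold changes of 0.03 ± 0.97 from WT to HET, 0.13 ± 0.99 from WT to MUT and 0.11 ± 0.79 from HET to MUT in the authors' deposited table, where ± is the error that the authors' fold change and test statistic imply (p = 0.944, 0.768 and 0.765). A single error of 0.99 is itself nearly 2-fold, so by it these rows set no narrow limit on this transcript's change. The gene sum has no error of its own, and Cuffdiff's p-values do not follow these errors closely, as given for Kcne2 below. The gene overlaps Calu, which encodes calumenin, on the opposite strand. The transcript ENSMUST00000080428 shares 397 of its 2410 bases with Calu exons, and the leading transcript shares none. Calu had 90.0 FPKM in WT and reached 97.0 FPKM in MUT. No source used here states a stranded library, so reads from the shared bases cannot be assigned with certainty.

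Of the transducin subunits, Gnat2, the cone alpha subunit that binds GTP, was at 18.6 FPKM in WT, 18.7 FPKM in HET and 20.2 FPKM in MUT. MUT was highest, and the leading transcript was at 0.20 ± 0.85 from WT to MUT in the authors' deposited table (p = 0.607). Gnb3, the cone beta subunit, which ON bipolar cells also use, was at 172.6, 161.1 and 149.5 FPKM in WT, HET and MUT. It was the member with the lowest ratio in MUT. Its coding transcript had a log2 fold change of -0.24 ± 0.40 from WT to MUT in the authors' deposited table (p = 0.18, q = 0.999). A share of 7.38% of all genes had a lower WT to MUT ratio than Gnb3. Of 12 bipolar markers, 8 were measured. From WT to MUT, 4 lay above 0 and 4 below (53.8% of all genes above). Their summed level was 148.3 FPKM in WT and 155.6 FPKM in MUT. Gnao1, which many neurons express, made up 106.5 and 113.0 FPKM of these sums, while Cabp5 had 3.61 and 3.03 FPKM and Pcp2 5.25 and 4.82 FPKM. Of 13 rod markers, 13 lay below 0 from WT to MUT, where 46.2% of all genes did, with a median log2 ratio of -0.32. Their sums were 701.6 and 596.2 FPKM. Of their 40 rows, 5 were lower at an unadjusted p under 0.05, against 0.483% of all rows. The part of either cell type in the Gnb3 values was not tested. Vsx1, Grm6, Bhlhe23 and Nyx were not analysed here.

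Gngt2, the cone gamma subunit, was at 294.9 FPKM in WT, 301.7 FPKM in HET and 286.2 FPKM in MUT. HET was highest and MUT lowest, and this difference between sums was not tested. The leading transcript had log2 fold changes of -0.04 ± 0.68 from WT to MUT and -0.12 ± 0.51 from HET to MUT in the authors' deposited table (p = 0.886 and 0.591). These errors belong to 1 transcript, and the sum has none. A pair of transcripts carried most of the signal, with 46.4% and 45.9% of the gene's FPKM in WT. They share 132 of 558 and 118 of 563 bases with exons of Abi3 on the opposite strand, a gene expressed in microglia. Abi3 had 0.738 FPKM in WT and likewise 0.734 FPKM in MUT, far under Gngt2. The other 3 Gngt2 transcripts share no base with Abi3.

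**Figure D3:**
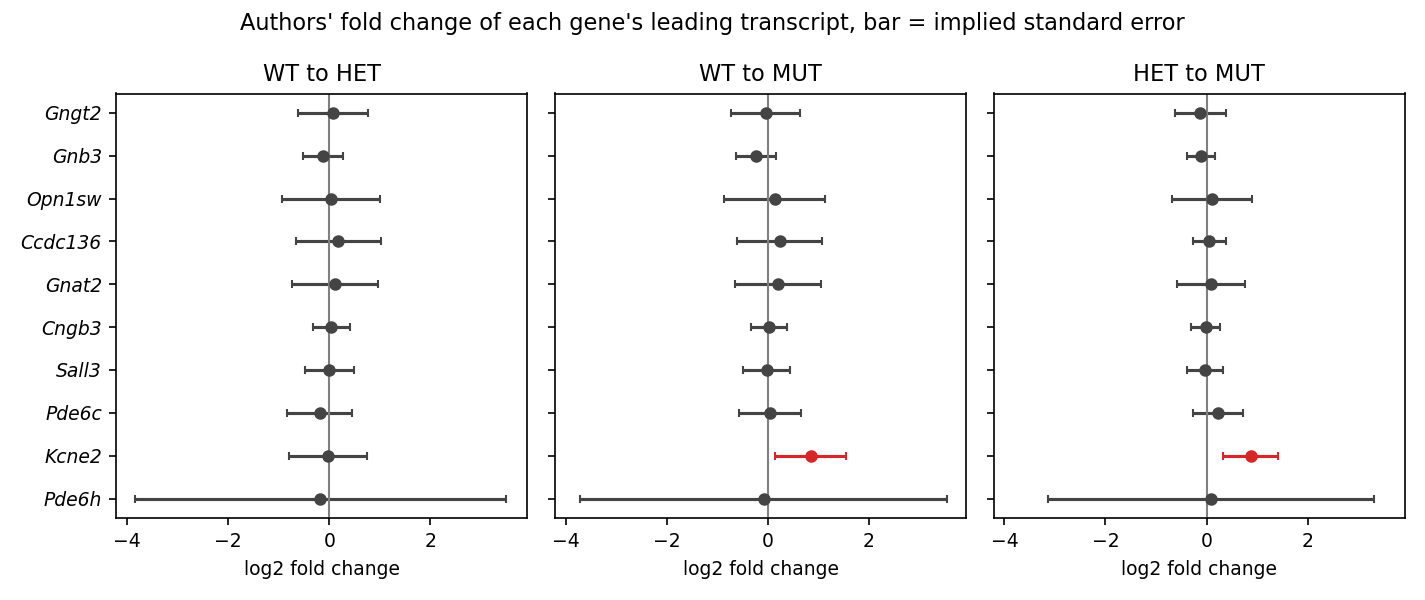
The authors' log2 fold change of the leading transcript of each cone gene in the 3 comparisons, with bars of 1 implied standard error; red marks an unadjusted p under 0.05. Only Kcne2 is red, at 0.85 and 0.87 in the comparisons with MUT, and the bar of Pde6h, at 0.390 FPKM or less, exceeds 3 log2 units to either side.

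The phosphodiesterase and channel genes were low. Pde6c, the catalytic cone phosphodiesterase subunit, was at 1.28 FPKM in WT, 1.12 FPKM in HET and 1.31 FPKM in MUT, with HET the lowest. Its fold change was -0.19 ± 0.65 from WT to HET and 0.23 ± 0.49 from HET to MUT in the authors' deposited table (p = 0.501 and 0.298). Cngb3, a channel subunit that opens to cyclic GMP, was at 4.57, 4.67 and 4.63 FPKM. Its groups nearly coincided, and its log2 fold change was 0.02 ± 0.36 from WT to MUT in the authors' deposited table (p = 0.917).

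Pde6h encodes the inhibitory gamma subunit of the cone phosphodiesterase. Its single row, ENSMUST00000204627, was at 0.390 FPKM in WT, 0.344 FPKM in HET and 0.369 FPKM in MUT. GENCODE M21 lists 4 transcripts, and the other 3 were not analysed here. The row's transcript begins inside the oppositely oriented gene Arhgdib, which is active in blood cells, and shares 136 of its 392 bases with Arhgdib exons. Arhgdib had 1.54 FPKM in WT, less than its 2.56 FPKM in MUT. The Pde6h row is therefore a weak measure of the cone subunit, and its log2 fold change of -0.08 ± 3.63 from WT to MUT in the authors' deposited table sets no useful limit (p = 0.947).

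Kcne2 was the exception among the 10. It encodes a small single-pass beta subunit that modifies voltage-gated potassium channels. It was at 1.08 FPKM in WT, 1.06 FPKM in HET and 1.94 FPKM in MUT, so WT and HET coincided and MUT stood apart. In the authors' deposited table its 1 transcript had a log2 fold change of -0.02 ± 0.77 from WT to HET (p = 0.945), 0.85 ± 0.71 from WT to MUT (p = 0.00895, q = 0.999) and 0.87 ± 0.55 from HET to MUT (p = 0.0006, q = 0.457). It did not pass the correction over all rows in any comparison. By size, 124 of 14844 genes had a WT to MUT ratio at least as high, and 79 of 14776 genes a HET to MUT ratio at least as high. By p, 56 of 43959 rows were as small as Kcne2 or smaller from HET to MUT. A threshold of 1.5 on the ratio was chosen after the values were seen. From WT to MUT, Kcne2 alone of the 9 members passed it upwards, as did 1.79% of all genes, and none downwards, as did 2.2%. From HET to MUT, Kcne2 alone passed it upwards, as did 0.975% of all genes, and none downwards, as did 1.57%. From WT to HET none of the 9 passed it, against 1.68% of all genes upwards and 1.92% downwards. With a pseudocount of 1 in place of 0.1, the log2 ratio of Kcne2 was 0.50 from WT to MUT and 0.51 from HET to MUT. Cuffdiff's p-values are smaller than the ratio of fold change to implied error would give, and not for Kcne2 alone. That ratio was 1.20 and 1.59 for Kcne2. For Neurog2 from WT to HET it was -1.74, at p = 5e-05 in the authors' deposited table.

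RNA outside the cones was set beside Kcne2, and no transcript of the lists that follow passed at the q-value. The Y-linked Kdm5d was near 0 in MUT, with 0.00117 FPKM, against 3.73 FPKM in WT (p = 0.225 in the authors' deposited table). For HET it stood at 5.41 FPKM in the HET against MUT table (p = 0.0379 in the authors' deposited table). These Kdm5d sums cover 2 transcripts, while from WT to HET 4 were summed, with 4.95 FPKM in WT. Eif2s3y, another Y-linked gene, had 1 transcript from WT to MUT, with 0.357 FPKM in WT and 0.0142 FPKM in MUT (p = 0.257 in the authors' deposited table). From WT to HET, 6 of its transcripts were summed, with 13.8 FPKM in WT and 23.8 FPKM in HET. Ddx3y and Uty, also Y-linked, were measured from WT to HET alone. Xist, made from the inactive X of females, summed to 98.8 FPKM in WT, 63.2 FPKM in HET and 135.0 FPKM in MUT, with p = 0.0471 from WT to MUT and 0.0011 from HET to MUT in the authors' deposited table. Of 9 microglia markers, 9 had a ratio above 0 from WT to HET (53.2% of all genes above), where Kcne2 was at 1.08 and 1.06 FPKM. Their median log2 ratio was 0.37 and their sum went from 71.3 to 92.7 FPKM. At an unadjusted p under 0.05, 2 of their 14 rows were higher, against 0.227% of all rows. From WT to MUT again 9 of 9 were above 0 (53.8% of all genes), with a median of 0.54 and sums of 72.2 and 105.0 FPKM. There were 5 such rows of 16 (0.368% of all rows), the lowest q-value being 0.0726 for C1qc in the authors' deposited table. From HET to MUT, 7 of 9 were above 0 (52.1% of all genes), with a median of 0.16 and sums of 92.9 and 104.8 FPKM. There 2 such rows of 13 were found, against 0.344% of all rows. Of 10 markers of pigment epithelium and choroid, 5 had 0.5 FPKM or more, 1 above 0 and 4 below from WT to MUT. Tyr (0.356 FPKM in WT, 0.302 FPKM in MUT) and Mlana (0.319 and 0.449 FPKM) were under that level. Sums over these 7 were 133.3 FPKM in WT and 126.9 FPKM in MUT, most of it Rlbp1, which Müller glia also express. Rpe65, Best1 and Lrat were not analysed here. The part of sex or of these cell types in the Kcne2 difference was not tested. Nor was that of sex in the other values compared with MUT.

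Ccdc136 encodes a coiled-coil protein and lies next to Opn1sw on chromosome 6, in the opposite orientation, with 16.1 kb between their starts. Its total was 53.0 FPKM in WT, 49.4 FPKM in HET and 55.4 FPKM in MUT, the same order as that of Opn1sw. With 3 groups, such an order carries no weight of its own. The values by start follow, though none of the 7 transcripts reached an unadjusted p under 0.05 in any comparison (smallest p = 0.261 in the authors' deposited table). The 3 transcripts that begin at the first start (29396630 to 29396685) summed to 38.6 FPKM in WT, 44.0 FPKM in HET and 46.6 FPKM in MUT. The 2 that begin at the second start (29398926) summed to 9.40 FPKM in WT, 1.72 FPKM in HET and 2.45 FPKM in MUT. The second start thus held 17.7% of the gene's FPKM in WT, 3.49% in HET and 4.42% in MUT. Most of that in WT came from ENSMUST00000180829, with 6.46 FPKM in WT, 0.260 FPKM in HET and 0.910 FPKM in MUT. Its fold changes were -4.63 ± 3.60 from WT to HET and -2.83 ± 3.46 from WT to MUT in the authors' deposited table (p = 0.305 and 0.302). The transcripts share most of their exons, so how the authors' software split reads between them bears on these shares, and the difference between starts was not tested. The second start was singled out after its values were seen.

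**Figure D4:**
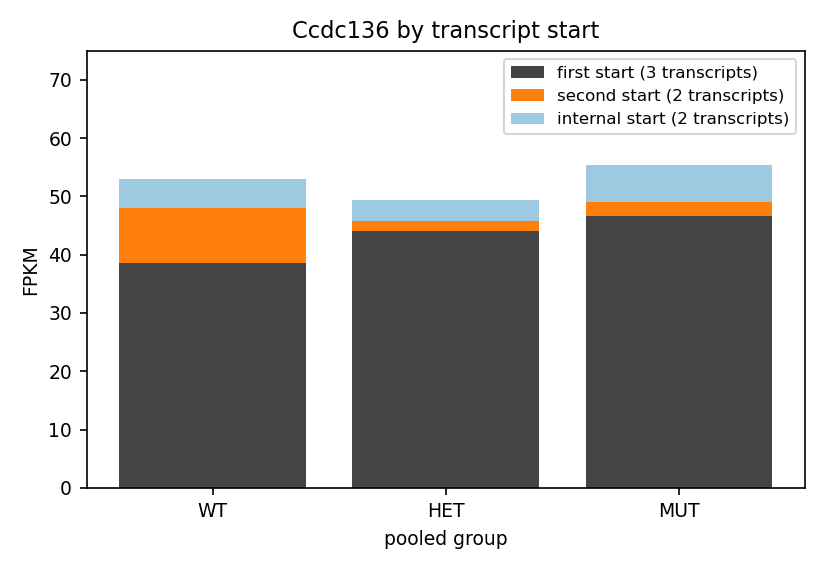
FPKM of Ccdc136 in the 3 pooled groups, stacked by where the 7 transcripts begin (first start 3, second start 2, starts further inside the gene 2). The total stays between 49.4 and 55.4 FPKM, while the second start is at 9.40 FPKM in WT, 1.72 in HET and 2.45 in MUT.

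Sall3, a zinc finger transcription factor that mouse cones need for short-wavelength opsin and that horizontal cells also express, was at 1.45 FPKM in WT, 1.45 FPKM in HET and 1.42 FPKM in MUT. Its log2 fold change was -0.03 ± 0.47 from WT to MUT in the authors' deposited table (p = 0.898). The groups nearly coincided. All 7 horizontal cell markers were measured, 3 above 0 and 4 below from WT to MUT (53.8% of all genes above), with a median of -0.06. From HET to MUT, 2 lay above and 5 below (52.1% of all genes above), with a median of -0.07. Of these, Ptf1a (p = 0.002) and Tfap2b (p = 0.0493) had a lower row at an unadjusted p under 0.05 in the authors' deposited table. The horizontal cell markers had 17 rows there. Of all rows, 0.471% were lower at that threshold, and none of these markers passed at the q-value. The part of horizontal cells in these values was not tested.

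Rod counterparts of the cascade genes were set beside them. From WT to MUT the log2 ratio of (FPKM + 0.1) was 0.12 for Gnat2 and -0.56 for the rod transducin alpha Gnat1. It was 0.03 for Pde6c, against -0.47 for Pde6a and -0.27 for Pde6b, the rod catalytic subunits. Cngb3 was at 0.02 and its rod counterpart Cngb1 at -0.32. Gngt2 was at -0.04 and Gngt1 at -0.22. Gnb3 broke this order, with -0.21 against -0.01 for Gnb1, which many other cells express too. The cone gene had the higher ratio in 6 of 7 pairs from WT to MUT, 6 of 7 from HET to MUT and 3 of 7 from WT to HET, and Pde6c stands in 2 of the pairs. These counts include Pde6h, which is under 0.5 FPKM, at -0.06 against -0.17 for Pde6g from WT to MUT. Without it they were 5 of 6, 5 of 6 and 3 of 6. The rod counterpart Cnga1 is in none of these pairs. Its log2 ratio was -0.73 from WT to HET, -0.45 from WT to MUT and 0.28 from HET to MUT. Cnga3, a cone channel gene, was at -0.26, -0.02 and 0.24. The rod counterparts had 24 rows from WT to MUT and 25 from HET to MUT. Of these genes, Gnat1 (p = 0.0462) and Pde6b (p = 0.0371 for its lowest row) were under an unadjusted p of 0.05 from WT to MUT in the authors' deposited table. There 0.483% of all rows were lower at that threshold. Gngt1 was under it from HET to MUT (p = 0.0175 in the authors' deposited table; 0.471% of all rows were lower). None of these 8 rod counterparts passed at the q-value in any comparison. The difference between cone and rod genes was not tested, as it needs values per sample.

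**Figure D5:**
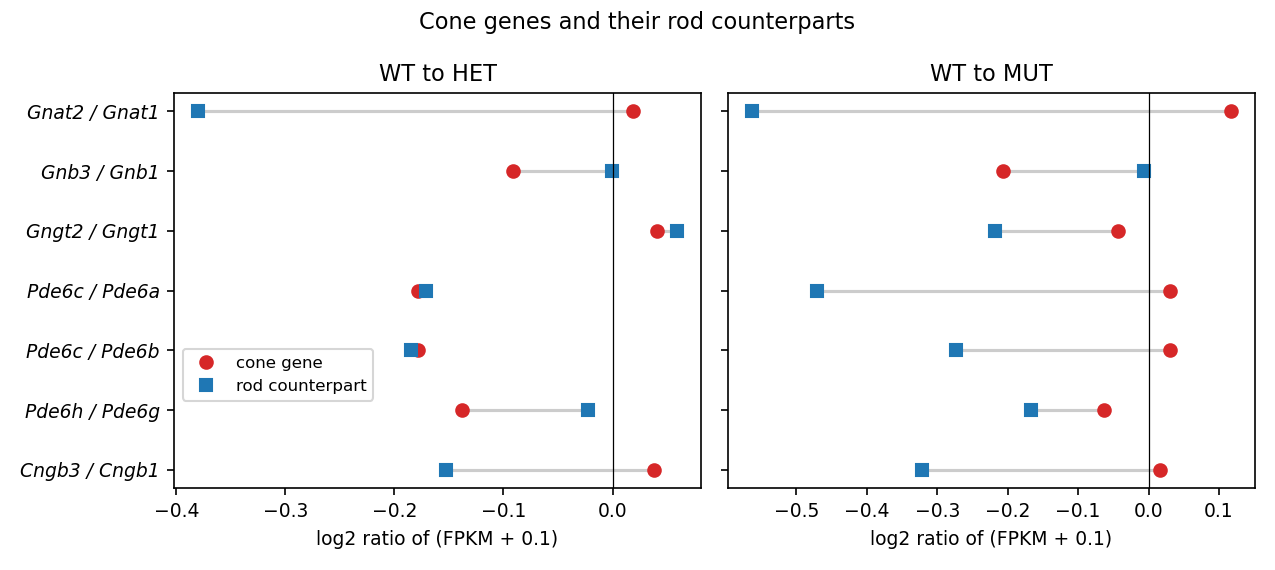
Log2 ratio of (FPKM + 0.1) of cone genes (red circles) and their rod counterparts (blue squares), joined by pair, from WT to HET and from WT to MUT; each point is 1 pooled value per group without error, and Pde6h is under 0.5 FPKM. From WT to MUT the cone gene lies to the right in 6 of 7 pairs, the exception being Gnb3 with Gnb1.

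The wider list held genes of cone development and of the shared photoreceptor machinery. Of 24 on the list, 22 were measured, and Opn1mw and Gucy2f were not analysed here. Their median log2 ratio was -0.07 from WT to MUT, with 5 above 0 and 17 below (53.8% of all genes above). None passed at the q-value, and 2 of their 46 rows were lower at an unadjusted p under 0.05 (0.483% of all rows were). These were rows of Prph2, from 76.7 to 63.7 FPKM, and Rom1, from 144.2 to 120.2 FPKM, both structural proteins of the outer segment rim that rods share. Genes more particular to cones were as follows. Arr3, the cone arrestin, had 0.987 FPKM in WT, near its 0.947 FPKM in MUT. Cnga3, the partner channel subunit of Cngb3, was at 2.53, 2.09 and 2.49 FPKM in WT, HET and MUT. Thrb, the thyroid hormone receptor that patterns cone opsins, was at 4.54, 4.83 and 4.57 FPKM, and Rxrg, its partner receptor in cones, at 10.8, 9.13 and 10.3 FPKM. None of these had a row under an unadjusted p of 0.05.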

How the data were processed

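Bulk RNA-seq of 15 mouse retinal samples was deposited as 3 Cuffdiff tables, 1 per pair of groups. Per the submitters' processing notes, Bowtie2, Cufflinks and Cuffdiff were used with mm10; no version is given. Each table holds an FPKM per transcript and group that the authors pooled over the samples of the group, per the file headers. The authors' log2 fold change is that of the second group over the first, per the file headers. The deposited test statistic is a score without a fixed range, and the deposited p-value and q-value come from the authors' test. Single samples were not analysed here, so no SD, depth or left-out sample can be given. The p-values rest on the authors' model and are not read as a measure of the spread between samples alone. The labels do not tie the samples to separate animals.

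The tables held 44119, 44526 and 43959 rows (WT against HET, WT against MUT, HET against MUT). FPKM values were summed per gene symbol, and log2 ratios used a pseudocount of 0.1 FPKM and genes with 0.5 FPKM or more in either group. The implied error is the absolute fold change divided by the test statistic. Levels are given from the WT against MUT table, and for HET from the WT against HET table, unless the comparison is between HET and MUT; the tables were normalized separately. Exons came from GENCODE M21 (GRCm38, the assembly of mm10) and promoter windows from RefSeq. Named genes were all members, their rod counterparts, the other listed cone genes and Neurog2; some results are not reported here. Members and lists were chosen with earlier results of these data known. Summing and correction were tested on simulated data. Python 3.11.15, pandas 2.3.3, numpy 2.4.6 and matplotlib 3.10.9 were used.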

Additional observations from a re-analysis of the deposited data

How the results depend on the processing

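The 120 alternative values for single members (pseudocounts of 0.01 and 1, the leading transcript alone, ratios centred on all genes) each moved by less than 1 implied standard error of the leading transcript, a wide limit that says little of stability. The median over members has no error of its own; it ranged from 0.01 to 0.03 from WT to MUT and from 0.04 to 0.10 from HET to MUT. Kcne2 ranged from 0.50 to 0.84 from WT to MUT and from 0.51 to 0.87 from HET to MUT. From WT to HET, where values lie near 0, Ccdc136 (-0.10 to 0.18), Opn1sw (-0.08 to 0.03) and the median (-0.05 to 0.03) turned positive with the leading transcript alone, and Sall3 turned negative when centred (-0.01). A normal approximation to the authors' test statistic left 0 member transcripts, in place of 1, at an unadjusted p under 0.05 both from WT to MUT and from HET to MUT, because Kcne2's ratio of fold change to error was under 2 in each. The targeted Neurog2, at p = 5e-05 from WT to HET in the authors' deposited table, had a ratio of -1.74. This approximation would drop it too. Over all rows, a q-value threshold of 0.10 gave 21 transcripts from WT to HET and 27 from HET to MUT in place of 0, and a threshold of 0.01 gave 0 from WT to MUT in place of 51; the cause is the shared smallest p, which puts all of them at 1 q-value per table. No member was among them. No paired analysis was possible because the deposited columns are pooled over the samples of a group. The sample titles carry numbers whose first part recurs in all 3 groups; what it marks is not stated in the labels, and the authors' values cannot be split by it. For the same reason no sample could be left out in turn.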

Other observations

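Several members were spread over transcripts that do not encode the full protein. Of the summed Gnb3 FPKM, the coding transcript held 70.0% in WT, 68.3% in HET and 68.5% in MUT, the rest being retained introns and a processed transcript. Coding transcripts held 72.1%, 78.0% and 75.3% of the Gnat2 sum, and 81.4%, 85.9% and 86.6% of the Opn1sw sum. The non-coding Gnat2 transcript ENSMUST00000130013 was at 4.39 FPKM in WT, 3.06 FPKM in HET and 4.01 FPKM in MUT, with no p under 0.05 in the authors' deposited table.

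Among 10060 genes with 5 FPKM or more in every group, those whose WT to HET and WT to MUT log2 ratios lay nearest to Opn1sw were Ddx5, 2410002F23Rik, Sh3pxd2a, Tmem39a and Pold4, each within a Euclidean distance of 0.00381. With 3 groups the measure separates little: 3476 genes lay within 0.1. Of the members above that level, Ccdc136 was at a distance of 0.0488 (rank 745) and Gnat2, Gngt2 and Gnb3 were farther.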
